A study of Saccharomyces cerevisiae with 8 samples.

Results

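The leucine and serine tRNAs of budding yeast (Saccharomyces cerevisiae) that are encoded without an intron form 4 anticodon families. They are tL(UAA) with 7 genes, tL(GAG) with 1, tS(AGA) with 11 and tS(UGA) with 3, where L stands for leucine, S for serine and the bracket holds the anticodon. Members were taken by name, as genes with 1 of these 4 prefixes and a nuclear chromosome letter, which gave 22 of the 7126 features counted, 22 of 274 nuclear tRNA genes and 4 of 41 nuclear anticodon families. Each gene was 1 exon in the R64 annotation, they lay on 13 chromosomes, and none was at 0 in any library. Counts were summed per anticodon.

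RNA of 50 to 100 nt, selected from total RNA of cells in rich medium (YPD), was counted in 8 libraries, 2 in each of 4 groups. The groups were the ubc9-1 strain, which carries a mutant form of the SUMO-conjugating enzyme, given 100 nM rapamycin for 30 min; ubc9-1 untreated; the wild type (WT, labelled UBC9) given the same rapamycin treatment; and WT untreated. Rapamycin inhibits TORC1, the nutrient-sensing kinase complex, and the series title names the question, which is how TORC1 acts through SUMO on RNA polymerase III, the enzyme that transcribes tRNA genes. The labels give no further genotype for either strain, and do not say whether the 2 replicates of a group were separate cultures, so the p-values measure only how these libraries vary, and that variation may be technical.

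Leucine and serine tRNAs are set apart from most others by a long variable arm between the anticodon stem and the T stem. Seryl-tRNA synthetase recognises its tRNAs largely through that arm, whereas the anticodon is read by the ribosome. tL(UAA) and tL(GAG) decode leucine codons, and tS(AGA), whose first anticodon base is deaminated to inosine, and tS(UGA) decode serine codons. The other leucine and serine families, tL(CAA), tL(UAG), tS(CGA) and tS(GCU), are encoded with an intron that must be spliced out.

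The 22 genes have 5 distinct sequences, which decide how counts can be divided among copies. They are shown from the RefSeq R64 genome, 5′ to 3′ on the gene strand, in lower case with the anticodon as the first run of capitals and the variable arm as the second. All 7 tL(UAA) genes are the same as tL(UAA)B1 (chrII:9583-9666, + strand). tL(GAG)G lies at chrVII:700675-700756 on the + strand. Of the 11 tS(AGA) genes, 10 are the same as tS(AGA)D1 (chrIV:437772-437853, + strand), and tS(AGA)D3 (chrIV:1305630-1305712, + strand) has 1 base more in the arm. All 3 tS(UGA) genes are the same as tS(UGA)I (chrIX:248850-248931, + strand). tS(CGA)C (chrIII:227942-228042, + strand) is printed without its intron of 19 bases because it is the intron-containing gene whose spliced form is nearest to tS(UGA).
tL(UAA)B1: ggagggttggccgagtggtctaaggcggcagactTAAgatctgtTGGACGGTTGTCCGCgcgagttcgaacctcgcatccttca
tL(GAG)G: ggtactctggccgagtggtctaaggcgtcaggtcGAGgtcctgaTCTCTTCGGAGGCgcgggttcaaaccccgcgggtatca
tS(AGA)D1: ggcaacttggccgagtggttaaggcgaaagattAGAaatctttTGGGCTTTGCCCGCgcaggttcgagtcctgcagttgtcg
tS(AGA)D3: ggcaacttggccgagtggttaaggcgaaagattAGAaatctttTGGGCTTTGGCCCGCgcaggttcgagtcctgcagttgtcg
tS(UGA)I: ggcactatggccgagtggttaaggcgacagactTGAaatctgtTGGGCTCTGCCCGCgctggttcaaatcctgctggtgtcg
tS(CGA)C: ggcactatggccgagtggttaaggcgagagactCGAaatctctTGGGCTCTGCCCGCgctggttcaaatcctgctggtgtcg

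The genes were 82 to 84 bases long. The variable arm was 13 bases in tL(GAG), 14 or 15 in the serine genes and 15 in tL(UAA). Over all 8 leucine and serine families it was 13 to 15 bases, against 4 to 5 in the 32 other families in which the anticodon could be placed. tS(UGA)I and spliced tS(CGA)C were identical at 96.3% of positions, and the changes were C28G, T34C and G42C, with the tS(UGA)I base first and positions counted from 1 at its 5′ end. tS(AGA)D1 and tS(UGA)I were identical at 85.5% of aligned positions, and tL(UAA)B1 and tL(GAG)G at 64.7%. The leucine pair thus shared less sequence with each other than tL(UAA)B1 shared with tS(UGA)I, at 72.1%.

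RNA polymerase III transcribes tRNA genes from the A and B boxes inside them, and stops at a run of T. The B box letters GTTCNANNC were on the gene strand of all 22 genes, as they were in 98.2% of the 274 nuclear tRNA genes, and on the other strand of none, against 0.73% of all. In 18 of the 22 genes the letters were GTTCGANNC, found in 72.6% of all tRNA genes. In the other 4, the tS(UGA) genes and tL(GAG)G, they were GTTCAANNC, found in 26.3%. The longest run of letters shared by all 22, TGGCCGAGTGGT, lies in the A box region. It was also on the gene strand of 41.2% of the 17 intron-containing leucine and serine genes and in 10.6% of all tRNA genes. A run of at least 5 T began 0 to 8 bases past the end of each of the 22 genes.

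Library totals ran from 14304014 to 21061460 assigned counts, and the 22 genes held 67680 to 224658 of them. Both libraries of a group always differed beyond counting error. UBC9 mRNA fragments were counted 221 and 298 times in rapamycin-treated ubc9-1, 307 and 554 in untreated ubc9-1, 79 and 114 in rapamycin-treated WT, and 2 and 74 in untreated WT; these counts do not show which allele is present. TRP1 was at 22 to 92 counts in the ubc9-1 libraries and at 0 in all WT libraries, and ADE2 was at 112 to 302 and at 0 to 14, so the strains also differed in the counts of these genes, and what any other difference between the strains adds cannot be told apart from ubc9-1. Fewer cells and less RNA per cell cannot be told apart in such libraries.

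Levels between families were compared as normalised CPM (counts scaled to library size with TMM factors) per kilobase of gene. tS(UGA) was highest in every group, with a mean of 36034 ± 6802 in rapamycin-treated ubc9-1, 82202 ± 73124 in untreated ubc9-1, 38238 ± 29443 in rapamycin-treated WT and 99519 ± 31306 in untreated WT (SD, n = 2 each). Its lead over the next family was within its own SD in untreated ubc9-1 and in rapamycin-treated WT. tL(GAG), which has a single gene, was lowest in every group, with a mean of 1452 ± 242 in rapamycin-treated ubc9-1, 3529 ± 2295 in untreated ubc9-1, 2379 ± 1520 in rapamycin-treated WT and 11912 ± 4234 in untreated WT. tL(UAA) and tS(AGA) lay between them and differed by less than the larger of their SD in each group, as in untreated WT, where the means were 45141 ± 22092 and 38344 ± 18272. Divided by the number of genes, the order in untreated WT was another: 33173 for tS(UGA), 11912 for tL(GAG), 6449 for tL(UAA) and 3486 for tS(AGA). Each alignment of a read that maps to several places was counted, so a family with identical copies can count 1 fragment several times, and these levels are of counts, not of molecules. With only the lowest copy of each distinct sequence counted, tL(GAG) was highest in untreated WT, at 17452 and 10471 CPM per kilobase, against 11939 and 7238 for tS(UGA), which was highest in each library of the other 3 groups, and tS(AGA) was lowest in all 8 libraries.

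**Figure D1:**
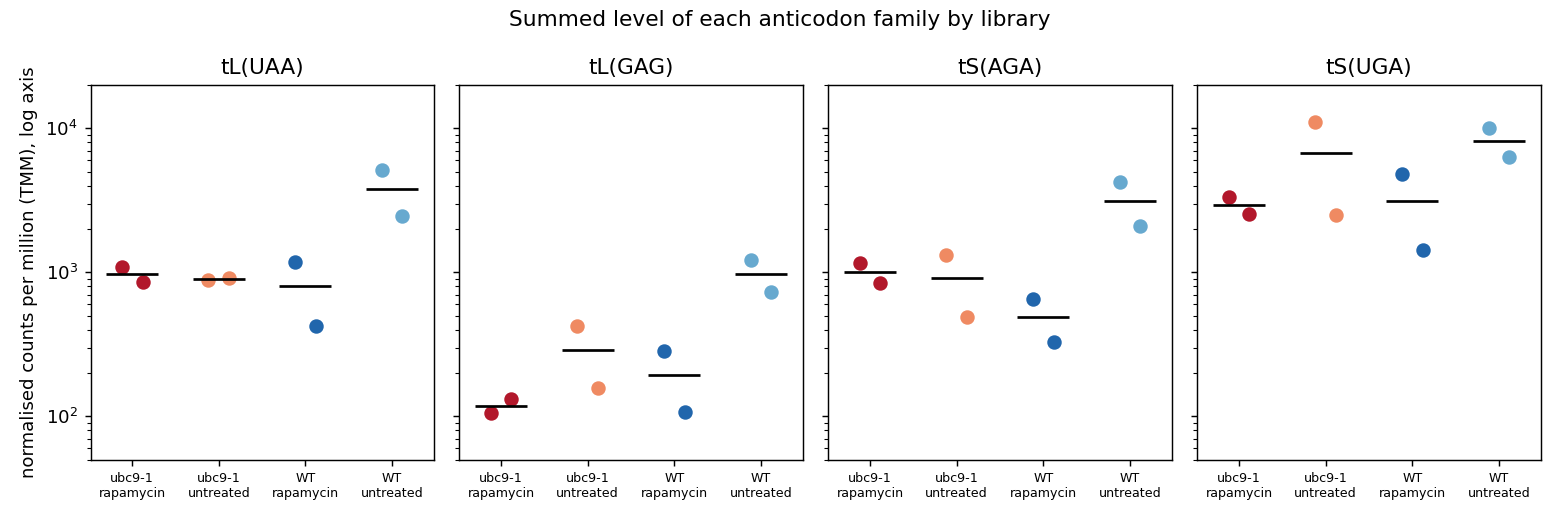
Normalised level (TMM-scaled CPM, log axis) of the 4 families in each library (points) with the group mean (line), for ubc9-1 with and without rapamycin and WT with and without rapamycin. In tL(UAA), tL(GAG) and tS(AGA) both untreated WT libraries lie above all 6 others, as in 25 of the 41 nuclear families and 12.8% of all features. In tS(UGA) the highest library is an untreated ubc9-1 library, at 10980 CPM.

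In WT, 3 of the 4 families fell with rapamycin, tL(UAA), tL(GAG) and tS(AGA), with log2 fold changes of -2.68 to -2.23. At this threshold, an edgeR quasi-likelihood adjusted p under 0.05, 20.0% of the 5893 features tested were called in either direction, and 649 were called lower. The fourth family, tS(UGA), had a value of -1.38 that missed the threshold. Over all 41 nuclear families 27 were called lower and none higher, with a median log2 fold change of -1.75, against -2.28 for the 4 families and 0.03 for all features.

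The leucine families gave close values. tL(UAA) had 1186 and 425 normalised CPM in rapamycin-treated WT, against 5104 and 2480 in untreated WT. Both treated libraries were below both untreated ones, and the log2 fold change was -2.23 (SE 0.458, edgeR adjusted p = 0.00283). tL(GAG) had 283 and 107 normalised CPM in rapamycin-treated WT, against 1222 and 731 in untreated WT. These groups did not overlap either, and the log2 fold change was -2.32 (SE 0.4996, edgeR adjusted p = 0.00391). Without the second rapamycin-treated WT library the tL(GAG) value was -1.78, with an edgeR adjusted p of 0.0602.

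The serine families differed more from each other. tS(AGA) had 655 and 330 normalised CPM in rapamycin-treated WT, against 4208 and 2087 in untreated WT. Both treated libraries were below both untreated ones, which differed from each other 2.02 times. The tS(AGA) log2 fold change of -2.68 (SE 0.499, edgeR adjusted p = 0.00148) was the second lowest of the 41 families, after -3.35 for the phenylalanine family tF(GAA). tS(UGA) had 4843 and 1428 normalised CPM in rapamycin-treated WT, against 9976 and 6345 in untreated WT. The groups did not overlap, but the treated libraries differed from each other 3.39 times, and the log2 fold change of -1.38 (SE 0.593, 95% interval -2.64 to -0.12) had an edgeR adjusted p of 0.115. It rested on single libraries, at -2.51 without the first rapamycin-treated WT library (edgeR adjusted p = 0.0344) and -0.75 without the second (adjusted p = 0.546). It was called in 5 of 19 alternatives, over which the adjusted p ran from 0.000671 to 0.551.

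Gene by gene, 19 of the 22 members fell with rapamycin in WT, where 148 of the 263 nuclear tRNA genes and 11.6% of the 6115 features tested were called lower. The 19 were all 7 tL(UAA) genes, with log2 fold changes of -2.24 to -2.15, tL(GAG)G at -2.28 and all 11 tS(AGA) genes, at -2.92 to -2.56. The 3 tS(UGA) genes were not called, with -1.57 for tS(UGA)I, -0.55 for tS(UGA)P and -0.54 for tS(UGA)E. Copies with the same sequence share reads, so these are not 22 independent values. Without the second rapamycin-treated WT library 10 genes were called.

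The 4 intron-containing leucine and serine families, handled by the same synthetases, also fell in WT, and all 4 were called. Their log2 fold changes were -1.84 for tL(CAA), -1.87 for tL(UAG), -2.07 for tS(CGA) and -2.60 for tS(GCU). The log2 ratio of the summed counts of the 4 intronless families to those of the 4 intron-containing ones, taken within a library, was 1.24 and 0.75 in rapamycin-treated WT, against 0.95 and 1.22 in untreated WT. The groups overlapped (exact permutation test, two-sided p = 1.0, n = 2 each).

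In ubc9-1, rapamycin gave no call in any of the 4 families, where 1.97% of features were called in either direction. An unadjusted edgeR p under 0.05 was found in 1 of the 4, tL(GAG), and in 618 of the 5893 features. DESeq2 and limma called 0 of the 4 families too, and their shares of all features called are not given. tL(UAA) had 1090 and 857 normalised CPM in rapamycin-treated ubc9-1, against 882 and 910 in untreated ubc9-1, and tS(AGA) had 1157 and 849 in rapamycin-treated ubc9-1, against 1329 and 489 in untreated ubc9-1. Both families overlapped between the groups, with log2 fold changes of 0.12 (SE 0.438, 95% interval -0.81 to 1.05) and 0.14 (SE 0.469, interval -0.86 to 1.14). tL(GAG) had 105 and 133 normalised CPM in rapamycin-treated ubc9-1, against 423 and 156 in untreated ubc9-1. The treated libraries were below the untreated ones, and the log2 fold change was -1.28 (SE 0.485, edgeR adjusted p = 0.290). Without the first untreated ubc9-1 library it was -0.40 (edgeR adjusted p = 0.9). tS(UGA) had 3349 and 2560 normalised CPM in rapamycin-treated ubc9-1, against 10980 and 2501 in untreated ubc9-1. The groups overlapped because the untreated libraries differed 4.39 times, and the log2 fold change was -1.19 (SE 0.590, interval -2.45 to 0.07, edgeR adjusted p = 0.526).

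None of the 22 genes was called in ubc9-1, where 1.49% of features were called. An unadjusted edgeR p under 0.05 was found in 3 of the 22, tL(GAG)G, tS(UGA)E and tS(UGA)P, and in 592 of the 6115 features. The median of the 4 families was -0.54, against -0.30 over the 41 families and 0.00 over all features. When the libraries were scaled on snoRNAs, the median of all features moved to -0.71. tL(GAG) and tS(UGA) were then called lower, at -1.72 and -1.54 (edgeR adjusted p = 0.0274 and 0.0106). The share of all features called under that scaling is not given.

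**Figure D2:**
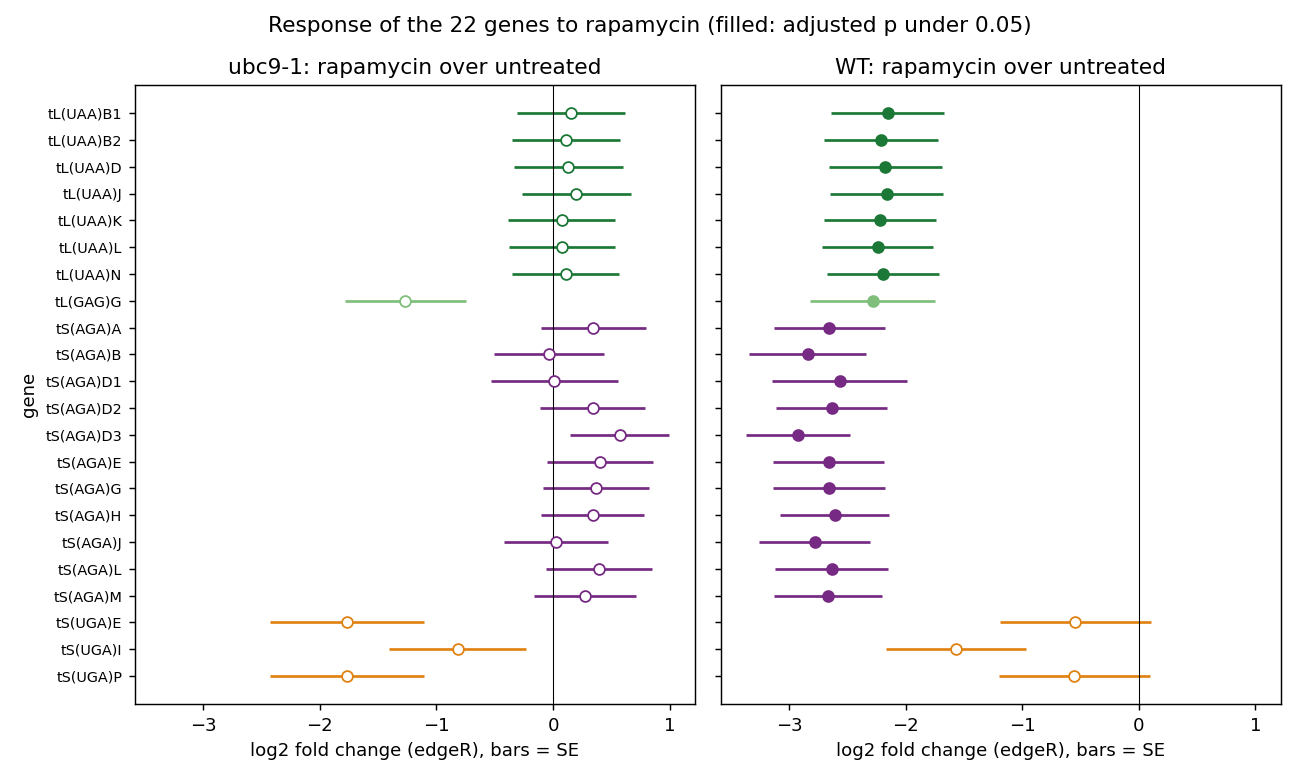
Log2 fold change with rapamycin of each of the 22 genes in ubc9-1 (left) and WT (right), with the standard error as bars and filled points where the edgeR adjusted p was under 0.05. In WT the points of tL(UAA), tL(GAG) and tS(AGA) lie between -2.92 and -2.15, and in ubc9-1 none is filled.

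The interaction test asked whether the rapamycin response differed between the strains (ubc9-1 response minus WT response). It called none of the 4 families, where 0.305% of features were called. An unadjusted edgeR p under 0.05 was found in 2 of the 4, in 21 of the 41 nuclear families and in 801 of the 5893 features. DESeq2 called 1 of the 4, tL(UAA), and limma 0. The shares of all features called by DESeq2 and limma are not given, so these counts have no background. The differences were 2.82 for tS(AGA) (SE 0.676, 95% interval 1.38 to 4.26, edgeR adjusted p = 0.115), 2.35 for tL(UAA) (SE 0.628, interval 1.02 to 3.69, adjusted p = 0.128), 1.04 for tL(GAG) (SE 0.676, interval -0.39 to 2.48) and 0.19 for tS(UGA) (SE 0.824, interval -1.56 to 1.94). tS(AGA) was the highest and tL(UAA) the second highest of the 41 families, and tS(UGA) the fourth lowest. Their median was 1.70, against 1.31 over the 41 families, none of which was called.

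Of the 22 genes, 1 had an interaction past the threshold, tS(AGA)D3, the copy with the extra base, where 0.164% of features were called. It had 277 and 279 counts in rapamycin-treated ubc9-1, against 268 and 202 in untreated ubc9-1, and 293 and 197 counts in rapamycin-treated WT, against 1126 and 846 in untreated WT. Only untreated WT stood apart, and the difference of responses was 3.49 (SE 0.612, edgeR adjusted p = 0.0445). The other 10 tS(AGA) genes had values of 2.57 to 3.06 that did not pass. The call for tS(AGA)D3 was lost under 4 other scalings, in limma and without any of 6 of the libraries. With genes of low counts kept, by contrast, 10 of the 22 genes were called. The share of all features called in that fit is not given, and copies with the same sequence share reads.

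Without rapamycin, tL(UAA) and tS(AGA) were lower in ubc9-1 than in WT, and 2.14% of features were called lower. tL(UAA), with 882 and 910 normalised CPM in untreated ubc9-1 against 5104 and 2480 in untreated WT, had a log2 fold change of -2.08 (SE 0.456, edgeR adjusted p = 0.0209). tS(AGA), with 1329 and 489 in untreated ubc9-1 against 4208 and 2087 in untreated WT, had -1.79 (SE 0.483, edgeR adjusted p = 0.0471). tL(GAG) had 423 and 156 normalised CPM in untreated ubc9-1, against 1222 and 731 in untreated WT, and its value of -1.76 (SE 0.490) missed the threshold at an edgeR adjusted p of 0.0534. In these 3 families both ubc9-1 libraries were below both WT libraries, as they were in 31 of the 41 families and 22.6% of all features.

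tS(UGA) had the value nearest to 0 of the 4. It had 10980 and 2501 normalised CPM in untreated ubc9-1, against 9976 and 6345 in untreated WT, so the ubc9-1 libraries lay on both sides of the WT ones. Its log2 fold change of -0.28 (SE 0.583, 95% interval -1.52 to 0.96, edgeR adjusted p = 0.836) was the highest of the 41 families, of which 15 were called lower. The value depended on single libraries. It was -1.70 without the first untreated ubc9-1 library, where tL(UAA) had -2.05, and 0.43 without the second. With 1 library left out at a time, the lowest values were -2.67 for tS(AGA) and -2.63 for tL(GAG). The place of tS(UGA) among the 41 families was not worked out with a library left out. The log2 ratios of tS(UGA) to each of the other 3 families, taken within a library, were on average 1.28 to 1.39 higher in untreated ubc9-1 than in untreated WT and did not overlap, with an exact permutation p of 0.333 each, the smallest allowed (adjusted p = 0.518). The median of the 4 families was -1.77, against -1.46 over the 41 families and 0.01 over all features. Of the intron-containing families, tL(CAA) was called, at -2.26 (edgeR adjusted p = 0.0122), the lowest of the 41, and tL(UAG), tS(CGA) and tS(GCU) had -1.63, -1.28 and -1.54.

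By gene, 15 of the 22 were lower in untreated ubc9-1, where 69 of the 263 nuclear tRNA genes tested and 2.40% of features were called lower. The 15 were the 7 tL(UAA) genes, at -2.10 to -2.01, and 8 of the 11 tS(AGA) genes, all of which had values between -2.47 and -1.61. Copies with the same sequence share reads, so these are not 15 independent values. No gene and no family was called without the first untreated WT library or without the second untreated ubc9-1 library. Scaled on snoRNAs, the median of all features moved to 1.13 and no family was called. In that scaling 3 genes were called, 2 of them higher and 1 lower, against 0 higher and 15 lower in the main scaling. The share of all features called under snoRNA scaling is not given, so these counts have no background.

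Under rapamycin none of the 4 families was called between the strains, where 3.80% of features were called. An unadjusted edgeR p under 0.05 was found in 1 of the 4, tS(AGA), and in 1143 of the 5893 features. DESeq2 and limma called 0 of the 4 families too, and their shares of all features called are not given. tS(AGA) had 1157 and 849 normalised CPM in rapamycin-treated ubc9-1, against 655 and 330 in rapamycin-treated WT. Both ubc9-1 libraries were above both WT libraries, and the log2 fold change was 1.03 (SE 0.474, 95% interval 0.02 to 2.03, edgeR adjusted p = 0.248). The values were 0.27 for tL(UAA), -0.71 for tL(GAG) and -0.09 for tS(UGA), each with libraries that overlapped between the strains. None of the 22 genes was called, where 2.01% of features were called. An unadjusted edgeR p under 0.05 was found in 10 tS(AGA) genes, with values of 1.02 to 1.27, and in 1089 of the 6115 features. Copies with the same sequence share reads, so these are not 10 independent values.

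**Figure D3:**
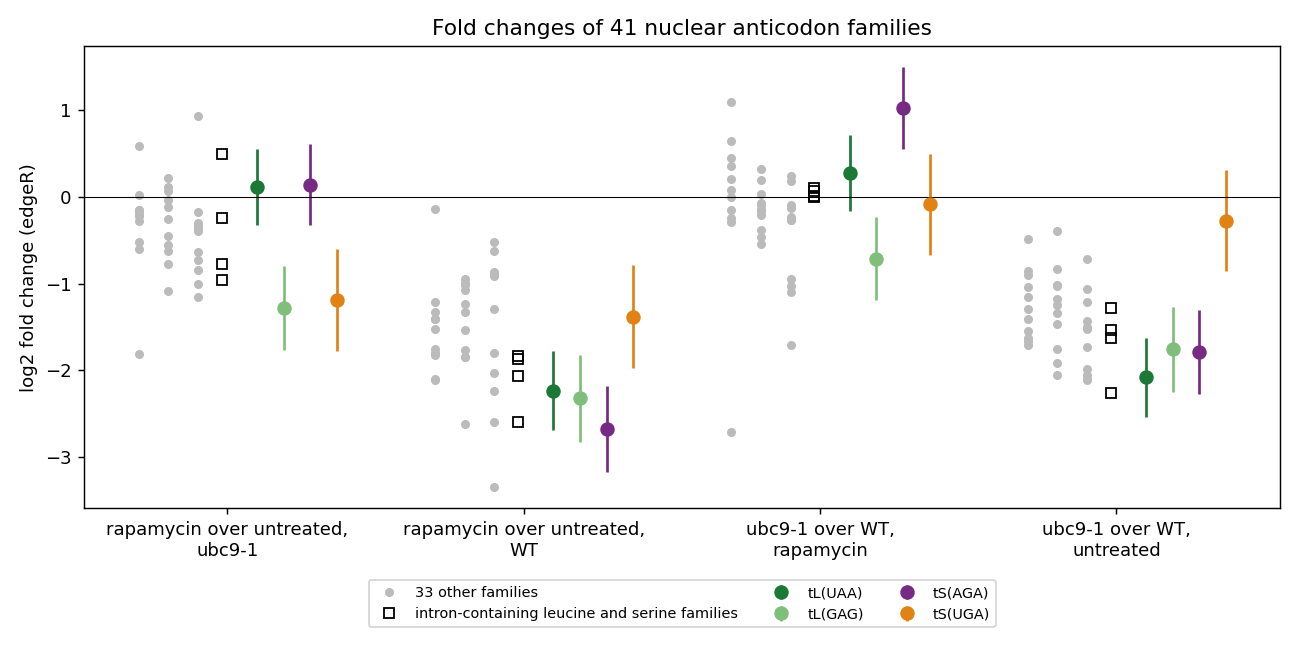
Log2 fold changes of the 41 nuclear anticodon families in 4 comparisons, with the 4 intronless leucine and serine families in colour (bars are standard errors), the 4 intron-containing ones as open squares and the other 33 as grey points. The tS(UGA) family lies above the other 3 in WT with rapamycin, at -1.38, and in untreated ubc9-1 against WT, at -0.28.

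Ratios taken within a library do not depend on the scaling between libraries. The log2 ratio of tS(UGA) to tS(AGA) counts was 2.89 and 2.11 in rapamycin-treated WT, against 1.25 and 1.60 in untreated WT. In ubc9-1 the order was turned round, with 1.53 and 1.59 in rapamycin-treated cells, against 3.05 and 2.35 in untreated cells. The groups overlapped in neither strain, with differences of 1.08 in WT and -1.14 in ubc9-1. An exact permutation test of 2 against 2 libraries cannot go below p = 0.333, which both comparisons gave, with an adjusted p of 0.518 over the 28 ratios and comparisons tested.

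Within the leucine pair, the log2 ratio of tL(GAG) to tL(UAA) counts was -3.38 and -2.69 in rapamycin-treated ubc9-1, against -1.06 and -2.54 in untreated ubc9-1. It was -2.07 and -1.99 in rapamycin-treated WT, against -2.06 and -1.76 in untreated WT. The groups overlapped in WT and not in ubc9-1, and the exact permutation test gave two-sided p-values of 0.667 and 0.333, with 0.333 the smallest it allows.

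The 4 families together held 5.70% and 6.09% of all nuclear tRNA counts in rapamycin-treated ubc9-1, against 7.44% and 5.81% in untreated ubc9-1. In rapamycin-treated WT they held 3.54% and 1.78%, against 5.68% and 5.84% in untreated WT. Rapamycin-treated WT was below all other groups, with an exact permutation p of 0.333 against untreated WT, the smallest allowed. Most of the share was tS(UGA), at 1.79% ± 0.957 in rapamycin-treated WT and 2.97% ± 0.297 in untreated WT (SD, n = 2 each). tS(AGA) held 0.294% ± 0.0544 in rapamycin-treated WT and 1.11% ± 0.0838 in untreated WT.

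Copies with one sequence did not all have the same counts, which was examined after the values were seen. The 7 tL(UAA) genes were within 1.05 to 1.29 times of each other in each library. Among the 10 identical tS(AGA) genes, tS(AGA)D1 had 5.86 to 11.5 times the count of the lowest copy, and among the 3 tS(UGA) genes, tS(UGA)I had 2.24 to 10.5 times. A read that fits all copies equally is counted at each, so the lowest copy bounds from above what the copies can share, and the excess of a copy over it was given to that copy alone or to only some of them. tS(UGA)I held 52.9% to 84.0% of the family's counts and tS(AGA)D1 37.6% to 53.3%.

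tS(UGA)I had 79718 and 30825 counts in rapamycin-treated WT, against 90881 and 94317 in untreated WT, and 31211 and 26825 in rapamycin-treated ubc9-1, against 86272 and 35208 in untreated ubc9-1. tS(UGA)E had 16305 and 5694 counts in rapamycin-treated WT, against 9159 and 8942 in untreated WT, and 6375 and 6359 in rapamycin-treated ubc9-1, against 38433 and 11770 in untreated ubc9-1. tS(UGA)P differed from tS(UGA)E by at most 0.753%. The highest library was thus untreated WT for tS(UGA)I and untreated ubc9-1 for the other copies.

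After normalisation, the excess of tS(UGA)I over the lowest copy was 2727 and 853 CPM in rapamycin-treated WT, against 7464 and 4812 in untreated WT, which did not overlap. The lowest copy itself had 701 and 193 CPM in rapamycin-treated WT, against 836 and 504 in untreated WT, which overlapped. In ubc9-1 the excess was 1891 and 1325 CPM with rapamycin, against 3218 and 1002 without, which overlapped, and the lowest copy had 485 and 412 CPM, against 2585 and 502, which did not. Between the untreated strains, the excess was lower in both ubc9-1 libraries than in both WT libraries, whereas the lowest copy overlapped. For tS(AGA)D1 both quantities did not overlap between rapamycin-treated and untreated WT, with log2 ratios of means of -2.60 for the excess and -2.66 for the lowest copy.

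With the family represented by its lowest copy in place of the sum, tS(UGA) had log2 fold changes of -0.59 with rapamycin in WT, -1.78 with rapamycin in ubc9-1 and 1.20 for untreated ubc9-1 against WT (SE 0.605, 0.621 and 0.611, edgeR adjusted p = 0.551, 0.225 and 0.265). The last has the sign opposite to that of tS(UGA)I, -0.87 (SE 0.589, edgeR adjusted p = 0.412). For tS(AGA), which has more than 1 sequence, the lowest of the 10 identical copies was added to tS(AGA)D3. This sum gave an interaction of 3.18 (SE 0.609) with an edgeR adjusted p of 0.0330, where 0.288% of features were called higher. It includes the counts of tS(AGA)D3, which was called on its own, so the calls are not independent. Of the nearest annotated features, YIL057C, 454 bp from tS(UGA)I, had 26 to 62 counts, and YDL007W, 194 bp from tS(AGA)D1, had 191 to 1099. Whether reads from neighbouring features add to the excess was not tested.

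**Figure D4:**
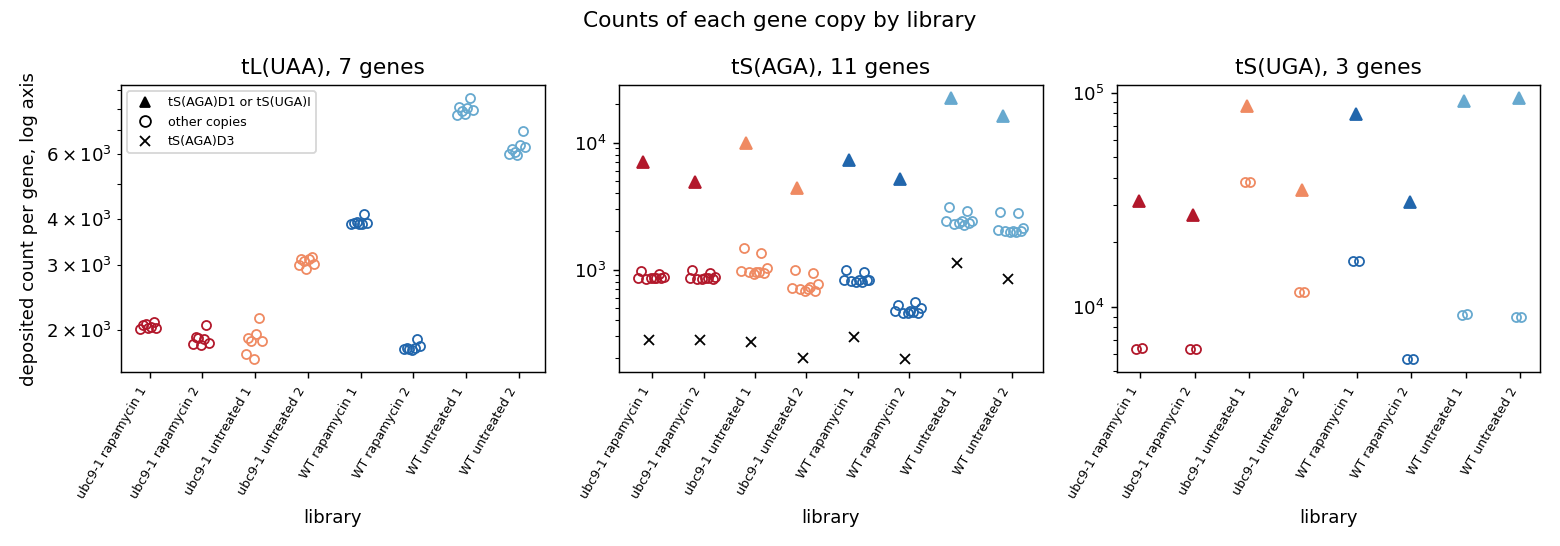
Deposited counts of each gene copy in each library (log axis) for tL(UAA), tS(AGA) and tS(UGA); triangles mark tS(AGA)D1 and tS(UGA)I, crosses tS(AGA)D3 and open circles the other copies. The tL(UAA) copies lie together, within 1.29 times, whereas tS(UGA)I lies 2.24 to 10.5 times above its copies.

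The families whose normalised log2 level over the 8 libraries was most like each of the 4 were found among the other 40. For tL(UAA) they were the proline family tP(UGG), tL(CAA) and the arginine family tR(ACG), with a Pearson r of 0.981, 0.964 and 0.963. For tL(GAG) the nearest was the tyrosine family tY(GUA), at 0.969, followed by tS(CGA) at 0.958 and tR(CCG) at 0.954. For tS(AGA) it was the cysteine family tC(GCA), at 0.954, followed by tH(GUG) at 0.937 and tT(AGU) at 0.936. For tS(UGA) the first was again tC(GCA), at 0.928, then tH(GUG) at 0.925 and tS(GCU) at 0.909. Among the 4, r ran from 0.714 for tL(UAA) with tS(UGA) to 0.909 for tL(UAA) with tS(AGA). All points share library, depth and scaling, so these values only describe likeness.

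The mRNA fragments of 26 genes were counted in the same libraries. Their proteins act, directly or not, in the charging, modification, export or decay of tRNAs, those of mitochondria included, or bind tRNA precursors (LHP1). MAF1, also among the 26, is a repressor of RNA polymerase III. In WT, 8 of the 26 fell with rapamycin and none rose, where 11.6% of features were called lower and 20.4% in either direction. The median of the 26 was -0.77, against 0.04 for all features. KRE33, the acetyltransferase that with its partner Tan1 acetylates leucine and serine tRNAs, had 73 and 100 counts in rapamycin-treated WT, against 261 and 579 in untreated WT, a log2 fold change of -3.06 (SE 0.415, edgeR adjusted p = 0.000236). The exportin LOS1 fell by 2.05, the La protein LHP1, which binds the 3′ ends of precursors, by 1.18, and the cytosine methyltransferase NCL1 by 1.79 on the log2 scale. The Elongator genes ELP2, ELP3 and IKI1, which act in wobble uridine modification, had -2.20, -2.10 and -1.28, and RTT10, a partner of the methyltransferase Trm7, had -1.86.

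In ubc9-1, KRE33 fell with rapamycin, with a log2 fold change of -1.76 (SE 0.399, edgeR adjusted p = 0.0422), with 124 and 52 counts in treated cells, against 310 and 524 in untreated cells. No other gene of the 26 was called there. None was called by edgeR between the strains or in the interaction. An unadjusted edgeR p under 0.05 was found in 4 of the 26 between the untreated strains, against 1388 of the 6115 features. Between the treated strains it was found in 3, against 1089 features, and in the interaction in 4, against 862 features. The synthetase genes were not called in any comparison. CDC60, which charges leucine tRNAs, had -0.46 (SE 0.336) and SES1, which charges serine tRNAs, -0.09 (SE 0.360) with rapamycin in WT.

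The mitochondrial genome encodes leucine and serine tRNAs of its own, made by another polymerase. Mitochondrial tS(UGA)Q2, which carries the same anticodon as the nuclear tS(UGA), had 681 and 403 counts in rapamycin-treated WT, against 713 and 702 in untreated WT, and a normalised log2 fold change of -1.24 (SE 0.394, edgeR adjusted p = 0.0393). It had 302 and 266 counts in untreated ubc9-1, and was lower there than in untreated WT, by 1.70 on the log2 scale (SE 0.401, edgeR adjusted p = 0.0329). With rapamycin in ubc9-1, where it had 290 and 260 counts, the value was 0.31 (SE 0.396) and was not called. tS(GCU)Q1 was not called in any comparison, and tL(UAA)Q was listed at 0 in all libraries.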

How the data were processed

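Per the submitters' processing notes, the tools were TopHat2 (version 2.0.13) and featureCounts (version 1.4.6-p3), on genome build R64. The deposited counts are raw whole-number counts of fragments per gene; per the file headers, reads were paired, a multi-mapping read counted at all its places, strand was not used and reads in overlapping features had no special option. The deposited CPM were within 4.4e-10 of CPM recomputed here and served an alternative test only.

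Counts were summed per nuclear anticodon (41 families) or kept per gene. Both tables were fitted whole in edgeR 4.0.16 (R 4.3.3; quasi-likelihood F test, TMM, filterByExpr with a minimum count of 10, all 8 libraries, 1 coefficient per group), with Benjamini-Hochberg adjustment over 5893 features in the family table and 6115 in the gene table, and a threshold of 0.05. A standard error is the absolute log2 fold change over the square root of F, and is approximate; intervals are 95% and use 4 residual and 11.3 prior degrees of freedom. SD are over n = 2. Ratios and shares were tested by exact permutation in SciPy 1.17.1. Scripts were tested on simulated data. Sequences and coordinates came from the RefSeq R64 genome, in which all 22 genes had the same coordinates as in the count table. Depth was 14304014 to 21061460 counts; intervals and folds cover no error of counting shared reads.

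Named were the 4 families and their genes, the 4 intron-containing leucine and serine families, the 3 families most like each of the 4 by Pearson r, mitochondrial leucine and serine tRNAs, UBC9, and genes of the 26-gene handling list past the threshold, with CDC60 and SES1. TRP1, ADE2, tF(GAA) and the neighbouring features were named after their values were seen. Members and lists were chosen with earlier results of these data known. Alternatives were DESeq2 1.42.0 (size factors or Wald test), total counts, TMM from 74 snoRNAs or without tRNA genes, no filter, limma 3.58.1 on log2(CPM + 1), only the libraries compared, the replicate number as a block, 1 value per distinct sequence, and each library left out. The lowest-copy alternative was added after seeing the data.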

Additional observations from a re-analysis of the deposited data

Results flagged for a closer look

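The response of tS(AGA)D3 to rapamycin differed between ubc9-1 and WT in an interaction test, by 3.49 on the log2 scale (SE 0.612, edgeR adjusted p = 0.0445). The call was lost under 4 other scalings, in limma and without any of 6 of the 8 libraries. The other 10 tS(AGA) genes had values of 2.57 to 3.06 that did not pass. Its log2 fold change with rapamycin was 0.57 in ubc9-1 and -2.92 in WT. It is the 1 tS(AGA) copy with a sequence of its own and had the fewest counts of the 22 genes, 3488 over the 8 libraries.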

How the results depend on the processing

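The direction of tL(UAA), tL(GAG) and tS(AGA) with rapamycin in WT, and of the same 3 families in untreated ubc9-1 against WT, held in each of the 19 alternatives run. With rapamycin in WT, tL(UAA) ran from -3.15 to -1.67 and tS(AGA) from -3.25 to -2.10, and both stayed under the threshold in all 19. In untreated ubc9-1 against WT, tL(UAA) passed in 15 of 19 and tS(AGA) in 9. For each value below, the cause of the change was not tested. The share of all features called under the same alternative is not given, so the counts of calls below have no background to be set against. Copies with the same sequence share reads, so counts of genes are not counts of independent values.

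Scaling on snoRNAs moved the median of all features by 0.34 with rapamycin in WT, -0.71 with rapamycin in ubc9-1, 1.13 for the untreated strains, 0.11 for the treated strains and -1.07 for the interaction. With rapamycin in ubc9-1 it gave 2 families and 3 genes lower and turned tL(UAA) to -0.615 and tS(AGA) to -0.316. For untreated ubc9-1 against WT it gave 0 families and 3 genes, with tS(UGA) at 0.498; for the treated strains tS(UGA) was 0.059, and in the interaction -0.440. With total counts the median was 0.56 with rapamycin in WT and -0.60 in the interaction. tL(UAA) was then -0.007 between the treated strains, and tS(UGA) -0.066 in the interaction. TMM without tRNA genes gave 8 genes for the untreated strains. In the interaction, DESeq2 size factors, total counts, TMM without tRNA genes, snoRNA scaling and limma each called 0 genes.

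For untreated ubc9-1 against WT, the DESeq2 Wald test called 1 family, and a fit of only the 4 libraries compared called 1 family and 1 gene. In the interaction, no filter gave 2 families and 10 genes, and the DESeq2 Wald test 1 family and 18 genes. With the lowest copy of each distinct sequence, tS(UGA) was 1.20 between the untreated strains, 0.005 between the treated strains and -1.20 in the interaction. There 1 family was called, tS(AGA), whose value includes the counts of tS(AGA)D3. The log2 ratio of tS(UGA) to tS(AGA) then differed by 1.96 with rapamycin in WT, -1.87 with rapamycin in ubc9-1 and 2.82 between the untreated strains. With 1 value per distinct sequence, the share of the 4 families differed by -5.31 percentage points with rapamycin in WT, -4.15 with rapamycin in ubc9-1 and 2.92 between the untreated strains.

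Replicates with the same number correlated in their deviations by 0.073 to 0.165 over features. No label says whether libraries with the same number were handled together. In every group, however, tS(AGA) and tS(UGA) had more normalised CPM in the first replicate than in the second. So did tL(UAA) except in untreated ubc9-1, and tL(GAG) except in rapamycin-treated ubc9-1. The TMM factor was lower in the first replicate of every group, as in untreated WT, at 0.677 against 1.07. Whether the replicate number marks a batch was not tested. The replicate block gave 2 genes with rapamycin in ubc9-1. Between the treated strains it gave 1 family, tS(AGA) at 1.12, and 10 genes, with tS(UGA) at 0.192. In the interaction it gave 2 families and 18 genes, which are not 18 independent values. How many of all features the block called was not set beside these counts. tS(UGA) with rapamycin in WT was -1.60 under the block (edgeR adjusted p = 0.000671).

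Leaving out 1 library at a time gave 10 to 20 genes with rapamycin in WT, the lowest without the second treated library. For untreated ubc9-1 against WT it gave 0 to 2 families and 0 to 16 genes; both were 0 without the first untreated WT or the second untreated ubc9-1 library, and both were 1 without either treated ubc9-1 library. The interaction had 0 to 1 families and 0 to 7 genes, the highest without the first untreated ubc9-1 and without the second untreated WT library. With rapamycin in WT, tS(UGA) ran from -2.508 to -0.749. With rapamycin in ubc9-1 the ranges were -0.065 to 0.269 for tL(UAA), -1.826 to -0.398 for tL(GAG), -0.405 to 1.029 for tS(AGA) and -1.893 to 0.235 for tS(UGA). tS(UGA) ran from -1.696 to 0.431 between the untreated strains, -0.712 to 1.047 between the treated strains and -0.517 to 1.645 in the interaction. Between the treated strains, tL(GAG) ran from -1.250 to 0.152 and tL(UAA) from -0.284 to 1.193. An arm left with 1 library was assumed to vary like the other groups. The lowest member count in a library was 197, so the spread between replicates limits precision more than depth.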
